A study of Mus musculus with 6 samples.

Results

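Calcium that astrocytes hold in the endoplasmic reticulum is released, returned and topped up by a small set of channels, pumps and sensors. The genes described here are 10 of them, namely the IP3 receptors Itpr1, Itpr2 and Itpr3, the ryanodine receptors Ryr1 and Ryr3, the reticulum pump Atp2a2, the plasma membrane pumps Atp2b1 and Atp2b4, the store sensor Stim1 and the entry channel Orai1. A probe set, the group of oligonucleotides on the array that reports 1 transcript, was taken where the platform annotation gave it the current or a former symbol of one of these genes. This found 26 probe sets of 9 genes, among 18193 genes named on the array. Itpr1 was not analysed here.

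Astrocytes of the cerebellum and of the neocortex of mice were measured on 3 single-colour arrays per region, from total RNA labelled as biotinylated amplified RNA. The labels name the ICR strain for the neocortical arrays and give no strain for the cerebellar ones, so if the strains differed, strain and region cannot be told apart. The labels give no treatment or genotype for either group, no age, and no way of isolating or growing the cells. They do not say whether the 3 samples of a region came from separate animals or preparations, and the p-values therefore measure the spread between these samples alone, which may be technical.

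In an astrocyte, receptors coupled to Gq proteins activate phospholipase C, which makes the messenger IP3, and IP3 opens the IP3 receptors of the endoplasmic reticulum. Ryanodine receptors are related release channels that calcium itself can open. Pumps of the SERCA family return calcium to the reticulum, those of the PMCA family expel it from the cell, and when the store runs low STIM proteins open Orai channels in the plasma membrane. In rodent astrocytes the product of Itpr2 is known as the main IP3 receptor behind calcium transients of the cell body.

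Of the genes measured, the plasma membrane pump gene Atp2b1 was higher in cerebellar astrocytes, by all 3 of its probe sets and by 1.99-fold to 2.8-fold. The IP3 receptor gene Itpr2 was 1.84-fold lower by 1 of its 3 tested probe sets. Both tested probe sets of Ryr3 had higher signal on every cerebellar array than on any neocortical one, at 1.55-fold by the brighter, and neither passed the test. The dimmer had neocortical signal in the dim range of the bacterial control probe sets, so no fold is given for it. Itpr3, Atp2a2, Atp2b4, Stim1 and Orai1 did not pass by any probe set, and both probe sets of Ryr1 were too dim to test.

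Signal is given in arbitrary units after quantile normalization, which gives every array the same distribution of values. Differences come from a moderated linear model (limma) over 27022 probe sets, on log2 signal, as cerebellar minus neocortical, with Benjamini-Hochberg adjusted p under 0.05 taken as passing. Across the array, 1337 probe sets had higher and 1567 had lower signal in cerebellar astrocytes, which is 10.7% of those tested, with 821 higher and 2121 lower when arrays were scaled by their medians instead. Spike-in bacterial control probe sets, used to describe the dim range, read from 2.9 to 269.2 before normalization, with a 95th percentile of 116. The 12 astrocyte markers listed, among them Gfap, Aqp4 and Slc1a3, all had mean signal above that range, with 1 higher and 4 lower in cerebellar astrocytes (7 lower with the replicate number as a block), and their summed signal was 173100 to 247300 on cerebellar and 240600 to 287700 on neocortical arrays. The 3′ to 5′ ratio of the Gapdh control, a gauge of RNA integrity, was 0.913 to 1.07 on cerebellar and 0.865 to 0.883 on neocortical arrays.

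Of the 26 probe sets, 19 were bright enough to test, and they represent 8 genes. Probe sets past the threshold numbered 3 higher and 1 lower in cerebellar astrocytes, against 4.95% of all tested probe sets higher and 5.8% lower. By the brightest probe set of each gene, Atp2b1 was higher, Itpr2 lower and 6 genes did not pass. Of the 12637 genes on the array tested in this way 12.9% passed, with 5.4% higher and 7.47% lower. The median log2 difference of the 8 genes was -0.099, beside -0.015 over all genes. The signal of the regions did not overlap for 7 of the 19 tested probe sets, against 32.4% of all tested probe sets.

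**Figure D1:**
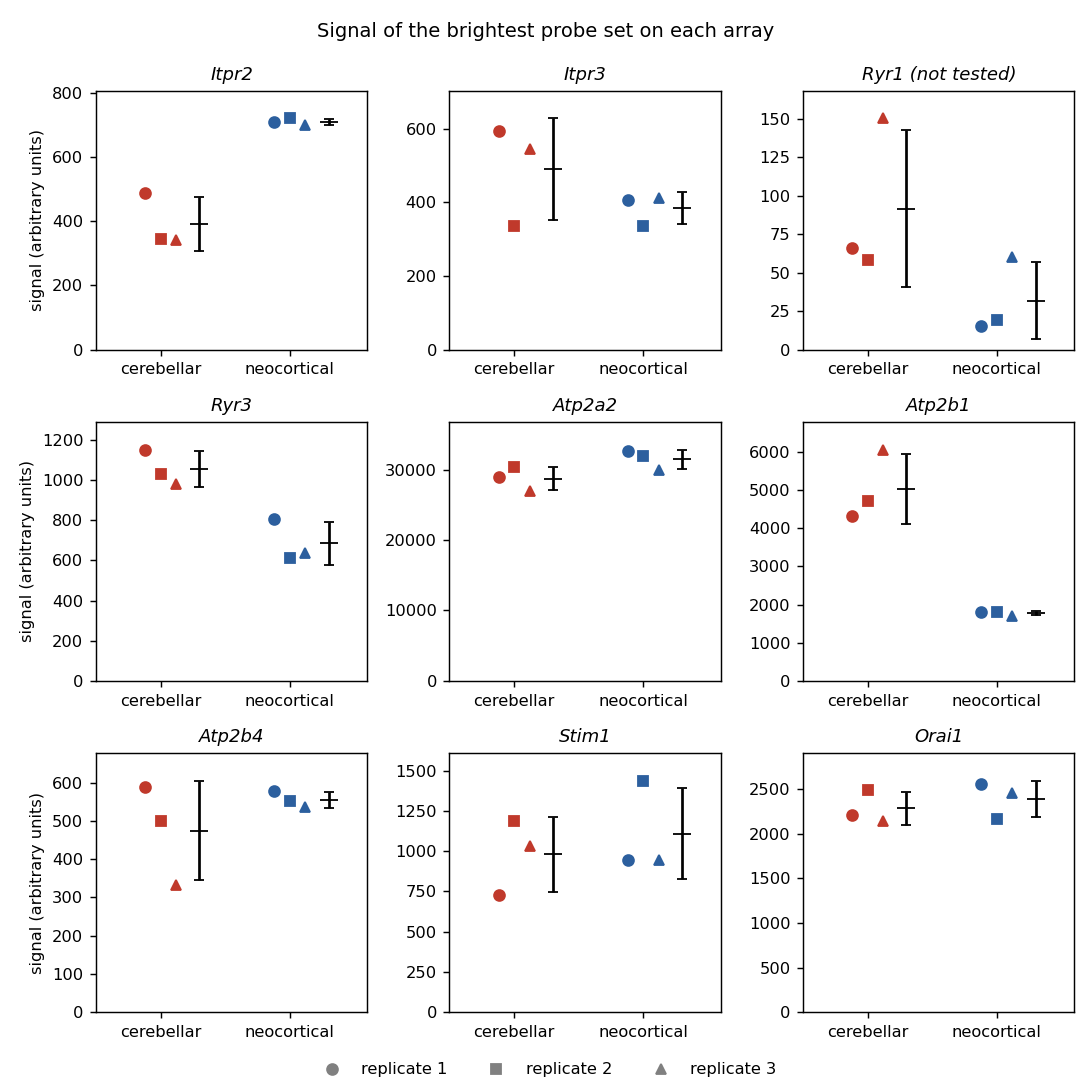
Signal (arbitrary units, quantile normalized, axes from 0) of the brightest probe set of each of the 9 genes on the 3 cerebellar and 3 neocortical arrays; marker shapes give the replicate number, and black bars are the mean and SD of 3 arrays. Atp2b1 lay at 4310 to 6056 on cerebellar and 1706 to 1812 on neocortical arrays, and Itpr2 at 341.5 to 487.4 and 699.5 to 719.8, while Itpr3, Atp2a2, Atp2b4, Stim1 and Orai1 overlapped between regions.

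Release channels come first along the pathway. Itpr2 was read by 6 probe sets, of which the brightest, 1424834_s_at, gave signals of 487.4, 344.3 and 341.5 on cerebellar arrays 1 to 3, against 708.6, 719.8 and 699.5 on neocortical arrays 1 to 3. Every cerebellar array lay below every neocortical one, and the neocortical arrays were close together (means 391.1 ± 83.4 for cerebellar arrays, 709.3 ± 10.2 for neocortical arrays; SD of 3). The log2 difference was -0.88 ± 0.217 (SE, limma adjusted p = 0.0348). In bulk RNA, fewer cells of a type and less RNA per cell give the same reading and cannot be told apart. Of 7 tested markers of the oligodendrocyte lineage, Olig1 and Olig2 passed as lower in cerebellar astrocytes (limma adjusted p = 0.00129 and 0.000501). Mbp passed as higher (limma adjusted p = 0.0133). The part of such cells in the Itpr2 signal was not tested.

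The other probe sets of Itpr2 did not show that difference. Probe set 1427287_s_at read 231.9, 319.9 and 392.7 on cerebellar and 376.6, 327.5 and 315.4 on neocortical arrays, with overlapping groups and a log2 difference of -0.14, 95% interval -0.79 to 0.51 (adjusted p = 0.807). Probe set 1424833_at, designed from the same transcript record as the brightest one, read 194.2, 292.2 and 238.8 against 138.4, 394.8 and 288 on cerebellar and neocortical arrays (log2 difference -0.07, interval -1.04 to 0.90, adjusted p = 0.938). Both of these probe sets reach into the dim range of the bacterial controls. The remaining 3 probe sets were below the brightness filter, with means of 108 to 146.2 over the 6 arrays. The mean of the 3 tested probe sets gave a log2 difference of -0.36 (adjusted p = 0.352), and with probe sets whose suffix marks shared or variant sequence left out it was -0.09 (adjusted p = 0.919). The call was also lost on leaving out cerebellar array 2 or 3 or any single neocortical array, with adjusted p from 0.0801 to 0.114 and log2 differences of -0.89 to -0.80.

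The window around the RefSeq start of Itpr2 is shown because this is the IP3 receptor gene with a called difference. It lies at chr6:146502174-146502473 on the minus strand of GRCm38.p6 and runs from 250 bases before the start to 50 after it. Capitals mark GC boxes, searched as GGGCGG on both strands (CCGCCC on the other), with overlapping matches counted.
Itpr2: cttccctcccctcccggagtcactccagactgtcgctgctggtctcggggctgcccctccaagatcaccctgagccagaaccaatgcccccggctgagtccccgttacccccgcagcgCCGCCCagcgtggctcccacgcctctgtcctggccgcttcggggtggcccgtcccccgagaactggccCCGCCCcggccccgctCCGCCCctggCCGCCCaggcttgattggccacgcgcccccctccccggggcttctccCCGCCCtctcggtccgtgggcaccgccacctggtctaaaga
It holds 5 GC boxes, a motif found in 35.7% of the 32851 RefSeq windows of this length. It also holds 2 matches to the CCAAT box, letters CCAAT on either strand, which 37.4% of windows hold. It has no match on either strand to TATAAA, held by 13.6% of windows, or to TGACGTCA, held by 1.8%.

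Itpr3, an IP3 receptor known mainly from epithelial and secretory cells, had 1 probe set. It read 594.1, 335.1 and 544 on cerebellar arrays and 407.1, 335.2 and 412.3 on neocortical arrays. Cerebellar array 2 was level with the lowest neocortical array, so the groups overlapped, and the log2 difference of 0.32 (interval -0.31 to 0.94) did not pass (adjusted p = 0.514).

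Among the ryanodine receptors, Ryr3, a form expressed in brain, had higher signal on cerebellar arrays by both tested probe sets. Probe set 1427427_at read 1152, 1032 and 979.8 on cerebellar arrays 1 to 3, against 808.8, 612 and 636.7 on neocortical arrays 1 to 3. Probe set 1452533_at read 350, 326.6 and 238.8 on cerebellar arrays, against 163.7, 117.7 and 82.8 on neocortical ones. The groups did not overlap in either, and in both the arrays of each region numbered 1 were the brightest of their group. The log2 differences were 0.63 ± 0.178 and 1.37 ± 0.401 (SE), with limma adjusted p of 0.0554 and 0.0628, so neither passed. The neocortical mean of 1452533_at, 121.4 ± 40.6 (SD, n = 3), lay in the dim range, and its mean over all arrays, 213.3, passed the brightness filter through the cerebellar arrays, so the size of its difference is uncertain.

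A call for Ryr3 appeared under 3 of the 16 alternative settings. The brightest probe set passed on the deposited scale without normalization (log2 difference 0.73, limma adjusted p = 0.0287). The mean of the 2 tested probe sets passed, at a log2 difference of 0.997 (limma adjusted p = 0.036). That mean includes 1452533_at, which passed the brightness filter through the cerebellar arrays, so it adds little to the brighter probe set. Probe set 1452533_at passed on the deposited scale (adjusted p = 0.0364) and without the variance trend (0.0468). Leaving out single arrays gave adjusted p of 0.0709 to 0.17 for the brighter probe set. The remaining probe set of Ryr3, 1432133_at, was below the brightness filter, with 3 of 6 arrays at or under the floor of 62.2 to which low values were raised. Summed signal of 12 neuronal markers, 7 of them with means in the dim range, was 15740 to 25190 on cerebellar and 22350 to 24400 on neocortical arrays, and among cerebellar arrays it was highest on array 1 and lowest on array 3, as both Ryr3 probe sets were. That order was carried by Stmn2. Without it, a choice made after seeing the data, the sum was 7811, 11400 and 10520 on cerebellar arrays 1 to 3, lowest on array 1, and 13130 to 16280 on neocortical arrays. The part of neuronal RNA in the Ryr3 signal was not tested.

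Ryr1, the release channel of skeletal muscle, was dim on all arrays. Probe set 1457347_at read 65.9, 58.6 and 150.3 on cerebellar and 15.6, 19.5 and 60.4 on neocortical arrays, and 1427306_at read 13.9, 97.2 and 64.9 against 11.6, 23.7 and 16.8. Each had 4 of 6 arrays at or under the floor, and no fold is given. Of 13 skeletal muscle markers, 11 had means in the dim range, and their summed signal of 6145 to 9400 on cerebellar against 1318 to 1744 on neocortical arrays was led on the cerebellar arrays by Myh8, a myosin heavy chain gene at 4453 to 7823 there and 6.85 to 50.4 on neocortical arrays. Without Myh8 the sums overlapped, at 1576 to 1722 on cerebellar and 1267 to 1738 on neocortical arrays.

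**Figure D2:**
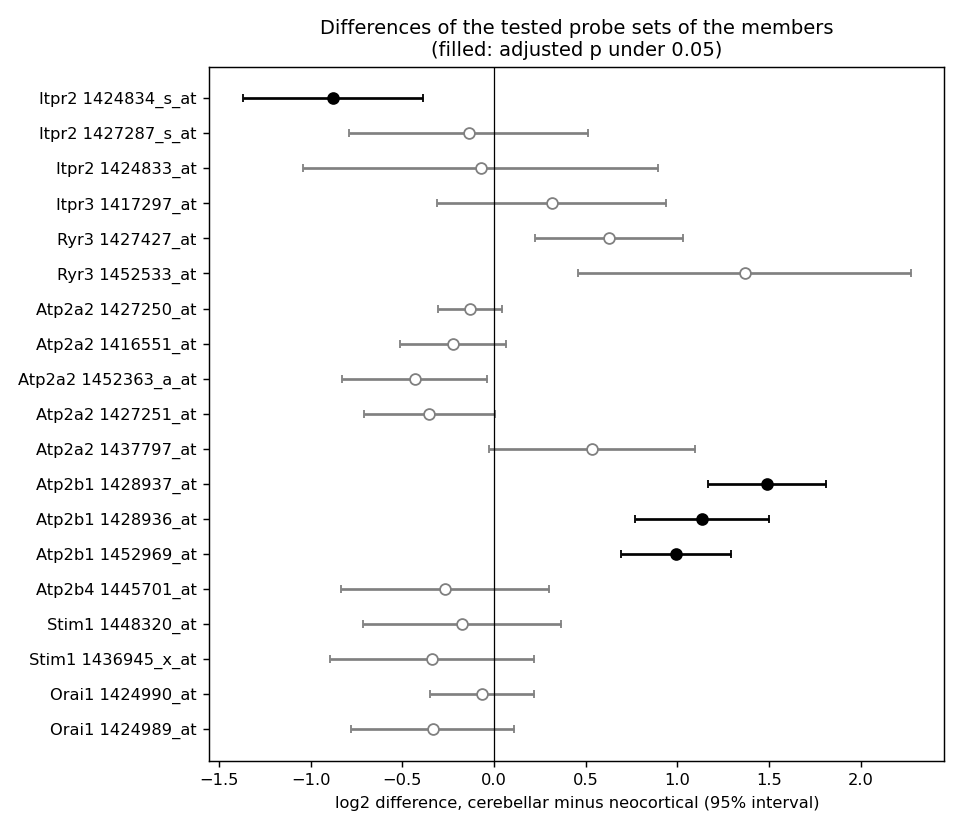
Log2 difference, cerebellar minus neocortical, with its 95% interval from the moderated fit, for the 19 tested probe sets; filled points have an adjusted p under 0.05. The 3 probe sets of Atp2b1 stand at 0.99 to 1.49, the brightest probe set of Itpr2 at -0.88, and the intervals of both Ryr3 probe sets lie above 0 although neither passed after adjustment over the array.

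Store refilling was represented by Atp2a2, whose product SERCA2 is the reticulum pump of most cell types. Its brightest probe set, 1427250_at, read 28900, 30320 and 26990 on cerebellar and 32580, 31880 and 29930 on neocortical arrays. Cerebellar array 2 exceeded neocortical array 3, and the log2 difference was -0.13, interval -0.31 to 0.04 (limma adjusted p = 0.319). On the fold scale the interval runs from 0.809 to 1.03. Of its other 4 tested probe sets, 3 had log2 differences of -0.43 to -0.23 and 1, 1437797_at, had 0.53, with adjusted p of 0.156 to 0.302 for the 4. None passed, and a transcript-specific difference between these probe sets was not tested. The last of the 6 probe sets was below the brightness filter.

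Of the pumps that expel calcium across the plasma membrane, Atp2b1 encodes PMCA1, a form present in most cells. Probe set 1428937_at read 4310, 4705 and 6056 on cerebellar arrays 1 to 3, against 1812, 1804 and 1706 on neocortical arrays 1 to 3. Every cerebellar array was far above every neocortical one. Probe set 1428936_at read 3941, 4294 and 5821 against 2336, 1919 and 2077, and 1452969_at read 1887, 2099 and 2178 against 1074, 987.8 and 1038 on cerebellar and neocortical arrays. All 3 ranked cerebellar array 3 highest and array 1 lowest within the cerebellar group, and none had overlapping regions.

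The log2 differences of Atp2b1 were 1.49 ± 0.142, 1.13 ± 0.161 and 0.99 ± 0.133 (SE, n = 3 arrays per region), with limma adjusted p of 0.000456, 0.00302 and 0.00223. As folds with 95% intervals these are 2.8 (2.24 to 3.5), 2.2 (1.71 to 2.83) and 1.99 (1.61 to 2.44). The probe sets derive from 1 transcript record, so they are repeated readings of 1 gene and not replicates. The 2 brightest had nearly equal means of 3399 and 3398 over the 6 arrays, and which one represents the gene shifts with the scaling. The gene's difference passed under all 16 alternatives tried, from 0.97 to 1.49 on the log2 scale (0.98 without cerebellar array 3, where 1428936_at was the brighter), with adjusted p from 0.000282 to 0.0175.

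The order of the cerebellar arrays in Atp2b1 was also that of fibroblast and meningeal markers. The astrocyte markers Gfap, Aqp4, Slc1a3, Gja1 and S100b had this order too, by their brightest probe sets. The other astrocyte markers listed did not, nor did the astrocyte sum, at 173100, 247300 and 243900 on cerebellar arrays 1 to 3. The summed signal of the 12 fibroblast and meningeal genes was 60990, 159900 and 279400 on cerebellar arrays 1 to 3. On neocortical arrays it was 97910 to 147800, and 1 gene lay in the dim range. Of the 11 tested genes of that list 1, Ogn, passed as lower, while their median log2 difference was 0.635. With the replicate number as a block 2 more passed, both higher in cerebellar astrocytes, Col1a1 (log2 difference 0.94, adjusted p = 0.00575) and Foxc1 (0.60, adjusted p = 0.0297). Without cerebellar array 3 the log2 difference of 1428937_at was 1.36 (limma adjusted p = 0.000917). Markers of smooth muscle and pericytes summed to 131900 to 169100 on cerebellar and 176100 to 207000 on neocortical arrays, and those of endothelium to 5291 to 7298 on cerebellar and 14760 to 17750 on neocortical arrays. Of the 8 endothelial genes 4 lay in the dim range, and of the 4 tested 2 passed as lower and 0 as higher. Without Slco1a4 the sums overlapped, at 1480 to 3056 on cerebellar and 2337 to 3212 on neocortical arrays. The part of these cell types in the Atp2b1 signal was not tested.

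RefSeq lists a pair of starts for Atp2b1, and both windows are shown because this is the gene whose probe sets all differed between regions. They lie on the plus strand of GRCm38.p6 at chr10:98914392-98914691 and chr10:98914902-98915201, with GC boxes in capitals as before.
Atp2b1 upstream start: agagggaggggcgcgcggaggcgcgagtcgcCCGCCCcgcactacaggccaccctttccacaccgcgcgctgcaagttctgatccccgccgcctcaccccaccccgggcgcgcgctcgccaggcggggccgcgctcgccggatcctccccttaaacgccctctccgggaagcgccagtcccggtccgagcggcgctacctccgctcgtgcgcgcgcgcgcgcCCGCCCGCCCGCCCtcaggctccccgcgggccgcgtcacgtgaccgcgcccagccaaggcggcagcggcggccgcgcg
Atp2b1 downstream start: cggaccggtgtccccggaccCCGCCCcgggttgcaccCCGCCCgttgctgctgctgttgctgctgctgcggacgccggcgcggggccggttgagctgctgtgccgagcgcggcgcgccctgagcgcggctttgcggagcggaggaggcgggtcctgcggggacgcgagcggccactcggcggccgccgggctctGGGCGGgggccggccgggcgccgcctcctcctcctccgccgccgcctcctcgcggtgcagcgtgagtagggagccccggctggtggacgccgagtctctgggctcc
The upstream window holds 4 GC boxes and 54 CG dinucleotides, a count reached by 0.35% of all windows, whose median is 7. The downstream window holds 3 GC boxes and 45 CG dinucleotides, a count reached by 1.93% of windows. Neither has a match to any of the other 3 motifs on either strand. The Itpr2 window has 26 CG dinucleotides, and that of the other pump gene, Atp2b4, has 4 and no GC box. Windows of other genes that did not pass hold more than that of Itpr2. Stim1 has 38 CG dinucleotides and 8 GC boxes, Orai1 36 and 3, and Itpr3 30 and 1. The window of Ryr1, which was not tested, has 9 and 2. The array does not show which start of Atp2b1 was used.

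Atp2b4, which encodes PMCA4, had 1 probe set. It read 589.8, 500.7 and 333.3 on cerebellar and 577.4, 553.3 and 535.9 on neocortical arrays. Cerebellar array 1 was the brightest of all and cerebellar arrays 2 and 3 the dimmest, so the groups overlapped, and the log2 difference of -0.27 (interval -0.83 to 0.30) did not pass (limma adjusted p = 0.548).

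The store-operated entry genes did not pass by any of their 4 probe sets. Stim1, the calcium sensor of the reticulum membrane, read 728.7, 1185 and 1032 on cerebellar and 945.2, 1437 and 944.2 on neocortical arrays by its brighter probe set (log2 difference -0.18, interval -0.72 to 0.36, adjusted p = 0.694). Its other probe set gave -0.34 (interval -0.89 to 0.22, adjusted p = 0.427). Orai1, the pore that STIM1 opens, read 2215, 2496 and 2147 on cerebellar and 2557, 2170 and 2454 on neocortical arrays by its brighter probe set, a log2 difference of -0.07 with an interval of -0.35 to 0.22 (adjusted p = 0.787). Its dimmer probe set read 441.4, 566.9 and 555.6 against 675.4, 602.4 and 686.5 on cerebellar and neocortical arrays, with no overlap, and did not pass (log2 difference -0.34, adjusted p = 0.319). The intervals of these 4 probe sets lie between 0.539 and 1.29 on the fold scale.

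**Figure D3:**
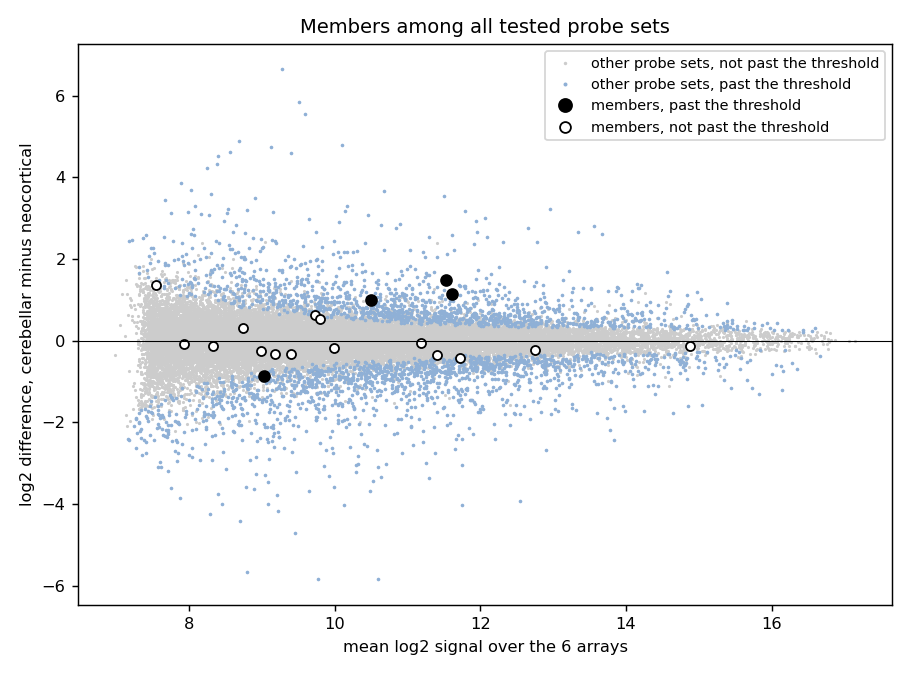
Log2 difference, cerebellar minus neocortical, against mean log2 signal over the 6 arrays for all 27022 tested probe sets, with those of the calcium store genes as large circles, filled where the adjusted p is under 0.05. The 3 filled circles above 0 are Atp2b1, the filled circle below 0 is Itpr2 1424834_s_at, and the other 15 lie among the probe sets that did not pass.

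The genes whose profiles over the 6 arrays came nearest to those of the called genes were found among 12629 genes by the root mean square distance between log2 profiles centred on their means. For Atp2b1 these were Rhpn1, which encodes a rhophilin, the long non-coding RNA gene Neat1, and the collagen gene Col23a1, at distances of 0.101, 0.113 and 0.114. Neat1 averaged 15250 on cerebellar and 5423 on neocortical arrays. For Itpr2 they were Nog, which encodes the BMP antagonist noggin, Entpd1, an ectonucleotidase gene, and Pfkfb3, a regulator of glycolysis, at 0.0587, 0.0655 and 0.0783. Their log2 differences were 1.42 to 1.52 for the 3 genes near Atp2b1, all past the threshold. For those near Itpr2 they were -0.89 to -0.81, and Entpd1 did not pass (limma adjusted p = 0.0538). Differences of like sign and size follow from the choice by profile and are no separate result.

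Other genes of calcium signalling were listed by role. Of 149 genes in 9 lists, 134 were on the array and 103 were tested by their brightest probe set, of which 3 were higher and 11 lower in cerebellar astrocytes. That is 13.6%, near the 12.9% of all genes, and the median log2 difference was -0.039, beside -0.015 over all genes.

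Genes that make IP3 moved in both directions, with 1 of 12 tested higher and 2 lower. Plcb4, a phospholipase C that Gq proteins activate, was 2.37-fold higher in cerebellar astrocytes, with means of 6744 ± 935 for cerebellar against 2833 ± 91.2 for neocortical arrays (SD of 3; limma adjusted p = 0.000472), and all 4 of its tested probe sets passed. Gna14, which encodes an alpha subunit of the Gq class, was 2.6-fold lower, at 847.3 ± 23.6 against 2213 ± 275, and 2 of its 3 tested probe sets passed. Plce1, a phospholipase C that Ras-type GTPases activate, was 1.84-fold lower (limma adjusted p = 0.00802, and 0.0816 without the brightness filter). Of 6 tested genes that break IP3 down, Inpp5a, an IP3 phosphatase gene, was 1.45-fold lower (adjusted p = 0.0429), and that call was lost in 8 of 16 alternatives. The other 5 did not pass, among them the IP3 kinase gene Itpkb and the inositol phosphatase gene Impa1 by their brightest probe sets (adjusted p = 0.409 and 0.523). The dimmer of the 2 tested probe sets of Itpkb passed as higher.

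Of 19 tested partners of the release channels, 1 passed by its brightest probe set, and 5 with the replicate number as a block (1 higher, 4 lower). The 1 was Car8, whose product binds the IP3 receptor encoded by Itpr1 and lowers its affinity for IP3, and it was lower in cerebellar astrocytes. It read 214.6, 194.7 and 48.9 on cerebellar and 930.3, 879.4 and 918.7 on neocortical arrays, and the cerebellar values lie in the dim range, so no fold is given (limma adjusted p = 0.00622, and 0.079 without the brightness filter). Its mean over all arrays, 531.1, passed the brightness filter through the neocortical arrays. The immunophilin gene Fkbp1a and the reticulum membrane protein gene Tmbim6 had log2 differences of 0.002 and -0.06. Dimmer probe sets of Bcl2 (2 of 5 tested) and Ahcyl1 (1 of 3) passed as lower, and these genes were named after their values were seen. Car8 is also a marker of Purkinje neurons, whose 8 measured markers summed to 3059 to 4054 on cerebellar and 3702 to 4824 on neocortical arrays, 3 of them with means in the dim range. Without Car8 itself those sums averaged 3404 on cerebellar and 3385 on neocortical arrays. Of the 6 tested markers 2, Car8 and Gad1, passed as lower and 0 as higher. The part of Purkinje neuron RNA in the Car8 signal was not tested.

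None of 10 tested genes of store refilling and store-operated entry passed, including Stim2 (log2 difference 0.38, adjusted p = 0.0649), Orai2 (-0.12) and Orai3 (0.14), named as relatives of Stim1 and Orai1 after their values were seen. Saraf and Tmco1, regulators of store filling, had log2 differences of -0.08 and -0.19. Of 16 calcium-binding proteins of the reticulum lumen 2 were lower. Casq1, the calsequestrin of skeletal muscle stores, was 6.36-fold lower, with means of 617.4 ± 136 for cerebellar against 3892 ± 615 for neocortical arrays (SD of 3; limma adjusted p = 0.000133). Rcn2, a reticulocalbin gene, was 1.51-fold lower by 1 of its 2 probe sets, and the other had a log2 difference of the opposite sign, 0.53, when it alone was used (adjusted p = 0.5), and their mean did not pass (0.935).

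Among genes of calcium extrusion only 2 of 7 were bright enough to test. Slc24a3, a potassium-dependent sodium-calcium exchanger gene, was 1.63-fold higher in cerebellar astrocytes (1917 ± 373 against 1159 ± 52.5, SD, n = 3 each, limma adjusted p = 0.0276, lost in 8 of 16 alternatives), and Slc8a1, the sodium-calcium exchanger, had a log2 difference of 0.11. The plasma membrane pump genes Atp2b2 and Atp2b3, named after their values were seen, were too dim to test, with means of 167.7 and 203.4 on cerebellar and 146.4 and 143.8 on neocortical arrays. None of 12 mitochondrial calcium genes and none of 8 tested Gq-coupled receptor genes passed. Of the 20 receptor genes on the array, 12 were too dim to test. Vdac1, Vdac2, Ednrb and F2r, the brightest of the mitochondrial and receptor lists, had log2 differences of -0.29 to 0.22.

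Effectors that respond to cytosolic calcium included 1 gene higher and 5 lower among 18 tested, while 5.4% of all genes were higher and 7.47% lower. On leaving out single arrays 2 to 4 were lower, with 2 without neocortical array 2 and 3 without neocortical array 1 or 3. Without the brightness filter, the variance trend or the suffix probe sets 3 were lower. Rcan2 and Rcan1, regulators of calcineurin, were 8.26-fold and 1.85-fold lower in cerebellar astrocytes. The kinase subunit gene Camk2a was 5.36-fold lower, at 308.1 ± 81 against 1714 ± 766 (SD, n = 3 each, limma adjusted p = 0.00201), and 2 of its 4 tested probe sets passed. Its signal on cerebellar array 1, 230.6, lay in the dim range. Of 6 tested neuronal markers 2, Syt1 and Gad1, passed as lower and 0 as higher. The part of neuronal RNA in the Camk2a signal was not tested. The calcineurin-regulated factor gene Nfatc4 was 2.27-fold higher by 1 of its 2 tested probe sets (2008 ± 316 against 903.9 ± 255, adjusted p = 0.0125). The mean of its probe sets gave an adjusted p of 0.332, and leaving out the brightness filter gave 0.095. The call of Rcan1 was lost in 4 of the 15 alternatives that gave it a value.

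**Figure D4:**
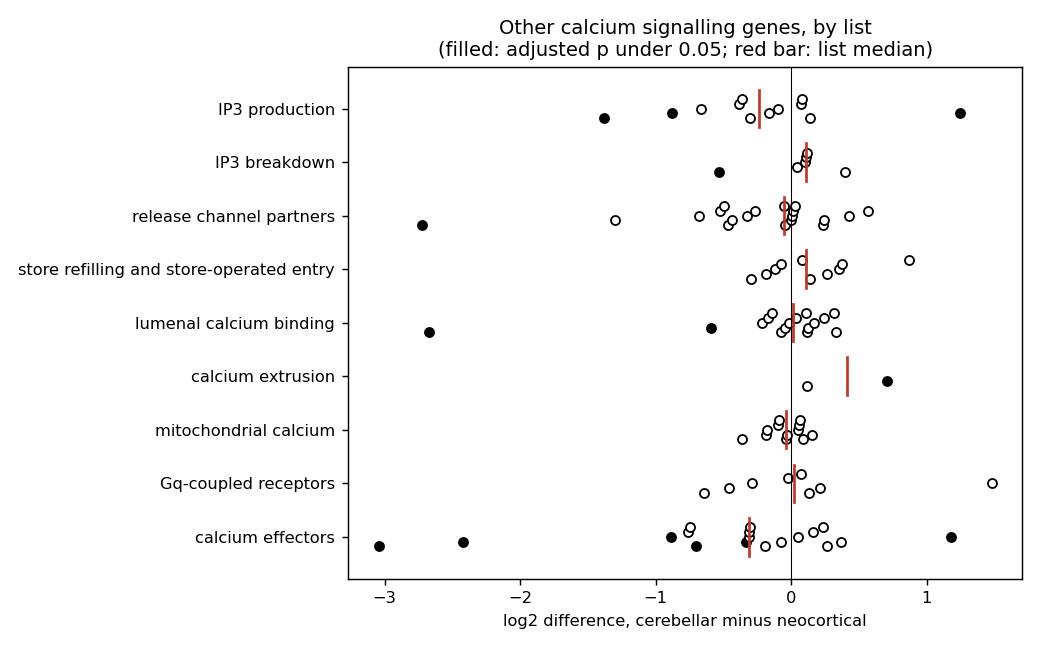
Log2 difference, cerebellar minus neocortical, of the tested genes in the 9 lists of other calcium signalling genes, each by its brightest probe set; filled points have an adjusted p under 0.05 and red bars are list medians. The 3 genes higher are Plcb4, Slc24a3 and Nfatc4, and the 11 lower include Rcan2, Car8 and Casq1.

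**Figure D5:**
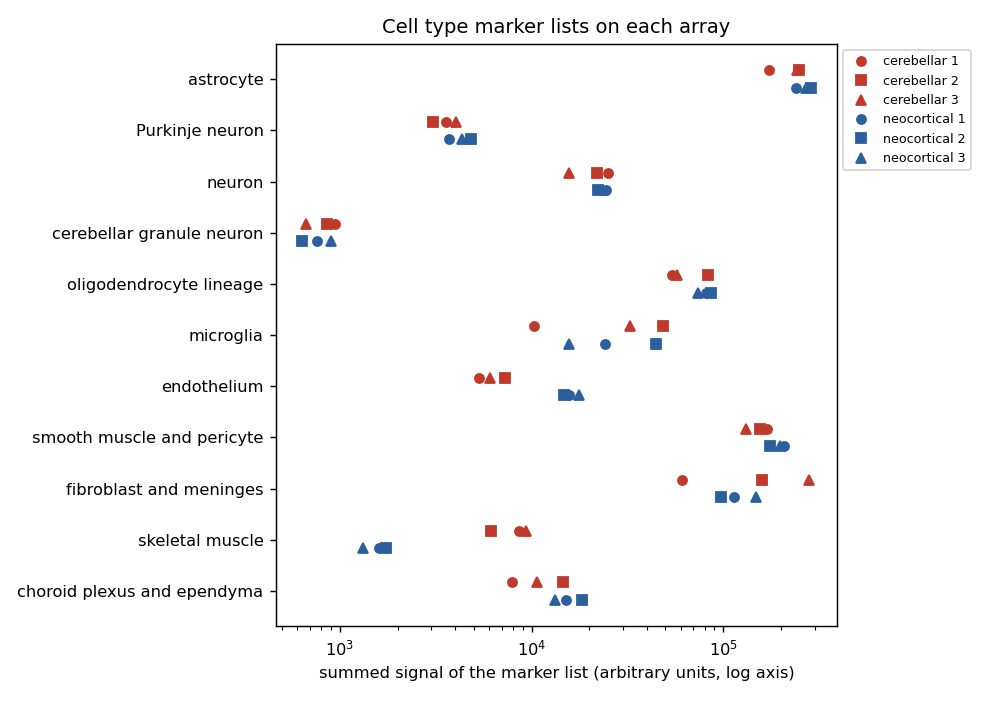
Summed signal (arbitrary units, log axis) of each cell type marker list on the 6 arrays, cerebellar above neocortical in each row, with marker shapes for the replicate number. The fibroblast and meninges list spans 60990 to 279400 on cerebellar arrays and the microglia list 10280 to 48750. The sums of the endothelium and skeletal muscle lists separate the regions in opposite directions. Without 1 gene in each, Slco1a4 and Myh8, the sums overlap, while 2 of 4 tested endothelial genes passed as lower.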

How the data were processed

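Expression was measured on 6 arrays, 3 of cerebellar and 3 of neocortical astrocytes, grouped by their titles. The authors deposited a linear intensity for each probe set on each array; how it was summarised, and with which software, is not given in the sources used here. Each array's 2% trimmed mean was 1500, and medians ran from 284.7 to 361.2. After leaving out 64 of 45101 probe sets as controls, quantile normalization was applied, signals were floored at 62.2 (the 20th percentile), log2 was taken, and the 27022 probe sets with mean signal at or above the 40th percentile were fitted with limma 3.58.1 in R 4.3.3 (variance trend, two-sided, Benjamini-Hochberg, threshold 0.05). The fit was tested on simulated data. Precision is limited by 3 arrays per region.

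Names came from the platform annotation (1 symbol for 34945 probe sets, several for 932, none for 9160), 34741 of them updated through RefSeq's GRCm38.p6 table by Entrez ID. Gene coordinates are not given because the probe sets' build is not stated. A gene is its brightest tested probe set. Sequences are RefSeq windows of GRCm38.p6 and were found for 7 of the genes.

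Members and lists were chosen with earlier results of these data known. Text names every member, up to 4 passing genes per list by size of difference (the 2 brightest where under 2 passed) and the 3 genes nearest in profile to each called member. Same-numbered arrays of the regions deviated together from their group means (correlations 0.182, 0.186 and 0.101, against -0.184 to 0.0261 for different numbers). The titles do not say that a number is shared, so the main fit took no pairing, and its p-values leave out any there was. The fit with replicate number as a block was an alternative, as were other scalings, floors, filters, variance models, probe set rules and leaving out each array. Marker sums without 1 gene were added after the data were seen.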

Additional observations from a re-analysis of the deposited data

How the results depend on the processing

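Precision rests on 3 arrays per region, and probe sets with signal up to 269.2 lie in the range of the bacterial controls. Of 125 recomputed differences of the 8 tested genes, 112 kept direction and side of the threshold, 9 lost the call (all Itpr2), 2 gained it (both Ryr3) and 2 turned sign (both Stim1). The counts of higher and lower probe sets over the array were 577 and 704 without a filter and 678 and 928 without a variance trend, with 821 higher under median scaling, which moved the median log2 difference of all probe sets by -0.106. Leaving out single arrays gave 550 to 1242 higher and 668 to 1560 lower. Without neocortical array 1 there were 594 higher and 739 lower, without array 2, 610 and 787, and without array 3, 550 and 668. Without cerebellar array 3, 840 were higher. Genes of the 10 past the threshold as higher numbered 2 on the deposited scale and when probe sets were averaged. Those lower numbered 0 in both, and also without a filter, with a filter at the 60th percentile (where Itpr2 fell under the filter) and with suffix probe sets left out. They numbered 0 to 1 on leaving out single arrays, with 0 for cerebellar array 2 or 3 and for each neocortical array, while 1 was higher each time. Probe sets of these genes numbered 5 higher on the deposited scale and 3 on leaving out single arrays, and 0 lower under the deposited scale, no filter, the 60th percentile and no suffix probe sets, and 0 to 1 on leaving out single arrays. Other listed genes lower numbered 17 under median scaling, 7 without a filter and 7 to 12 on leaving out single arrays, the 7 without neocortical array 2.

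With the replicate number as a block the array gave 1571 higher and 1809 lower, Atp2b1 had an adjusted p of 0.00055, Itpr2 0.0416 and Ryr3 0.0517, and no call of the 8 genes changed. The other listed genes gave 4 higher and 14 lower: Homer1, Asph, Jph2, Hap1 and Plcd4 gained a call (adjusted p from 0.0293 to 0.0488) and Camk2g lost it (0.0592). These 6 were named after their values were seen. Nog, near Itpr2 in profile, lost its call (0.0518).

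Differences that changed sign were small in the main values, Rcn2 excepted, and the cause was not tested. On the deposited scale Itpr2 1427287_s_at was 0.033 and 1424833_at 0.092, and Fkbp1a was -0.004. Under median scaling Fkbp1a was -0.17, Impa1 -0.12 and Vdac2 -0.10. With suffix probe sets left out Rcn2 was 0.53. On leaving out single arrays Stim1 ran from -0.33 to 0.027, Fkbp1a from -0.025 to 0.032, Tmbim6 from -0.17 to 0.038, Itpr2 1427287_s_at from -0.32 to 0.065 and Itpr2 1424833_at from -0.50 to 0.25.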
